A study of Rattus norvegicus with 48 samples.

Results

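MiR-192 and miR-194 are microRNAs (miRNAs), short RNAs that pair with messenger RNAs through the seed near their 5′ end and lower their output. The cluster was followed here through 3 mature miRNAs, rno-miR-192-5p, rno-miR-192-3p and rno-miR-194-5p, which were picked by name out of 763 rat miRNAs listed for every library. All 3 had reads, and 629 of the 763 had at least 1 read in at least 1 library. Small RNA was sequenced from 32 sera and 16 ulna bones of male ZDF (Zucker diabetic fatty) and wild-type (WT) rats, to compare diabetic with lean animals and to follow bone-directed treatments and insulin.

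ZDF rats (fa/fa) carry a homozygous leptin receptor mutation and develop type 2 diabetes, and the WT rats were Zucker lean animals (+/+). The rats of all groups ate a high-fat, high-carbohydrate chow from 11 weeks of age, had a subcritical defect cut in the femur and were treated for 12 weeks. Placebo sera were from 5 WT and 5 ZDF rats. Treated sera were from 5 WT and 5 ZDF rats given 75 µg/kg parathyroid hormone (PTH), from 4 WT and 4 ZDF rats given 25 mg/kg anti-sclerostin antibody, and from 4 ZDF rats given insulin, with doses adjusted between 0.5 and 13 IU. No insulin-treated WT group was analysed here, so an effect of insulin outside the diabetic background was not measured. Ulna bones came from 4 rats each of the WT placebo, WT PTH, ZDF placebo and ZDF PTH groups. The study states that the bones were taken from rats that also gave serum, apart from some PTH-treated ZDF rats, but the labels do not link them, and the tissues were treated as independent. Each library is one rat according to the study. A whole ulna holds marrow, vessels and attached muscle besides bone cells, and serum collects RNA from many organs, so that fewer cells of a type and less RNA per cell cannot be told apart.

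The miR-194 hairpins sit at 2 places in mammalian genomes, beside either the miR-192 or the miR-215 hairpin. Neighbouring hairpins are transcribed as shared precursors. The products of miR-192 and miR-194 are abundant in liver, intestine and kidney. Each hairpin can release a 5p and a 3p arm, and usually one arm is kept and the other is largely degraded. MiR-192-5p in blood is known as a marker of liver injury.

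The mature sequences are shown because the whole sequence bears on which reads the members could share, and the seed on which targets. They were copied from RefSeq with the GRCr8 assembly, in which all 3 members were found, and run 5′ to 3′ with the seed, bases 2 to 8, in capitals. The arms of miR-192 and the 5p arm of miR-194 have 3 different seeds, whereas miR-215, the partner of miR-194 at the other locus, has the seed of miR-192-5p.
rno-miR-192-5p: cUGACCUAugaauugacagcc
rno-miR-215: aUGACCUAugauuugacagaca
rno-miR-192-3p: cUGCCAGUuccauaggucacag
rno-miR-194-5p: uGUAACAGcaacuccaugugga

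MiR-192-5p and miR-215 differed at 3 of the 21 positions compared, counted from 1 at the 5′ end of miR-192-5p: C1A, A12U and C20A. Among the 692 other mature rat miRNAs of the table, miR-215 was the nearest to miR-192-5p, whereas the nearest sequences to miR-192-3p and miR-194-5p had 7 mismatches. MiR-215 was not analysed here, and whether any of its reads were counted on miR-192-5p was not tested. The seed of miR-192-3p occurs in 1 other mature miRNA of the table, rno-miR-3084c-3p, and that of miR-194-5p in no other.

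On GRCr8, Mir194-2 (chr1:212994024-212994108) and Mir192 (chr1:212994209-212994318) lie on the plus strand with 100 bases between the hairpins, in the interval between Atg2a and Ehd1 and inside no annotated gene other than their own. Mir194-1 (chr13:99382716-99382798) and Mir215 (chr13:99382990-99383086) lie on the plus strand 191 bases apart, within the span of Iars2, the gene of the mitochondrial isoleucyl-tRNA synthetase. These coordinates are not those of the build to which the authors mapped, Rnor 6.0. The hairpins are given with the annotated mature arms in capitals, since they show why miR-192-5p and miR-192-3p have a single annotated hairpin, on chromosome 1, while miR-194-5p has hairpins on both chromosomes.
Mir194-2: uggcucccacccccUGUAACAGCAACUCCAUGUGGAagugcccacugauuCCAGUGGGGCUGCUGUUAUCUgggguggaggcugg
Mir192: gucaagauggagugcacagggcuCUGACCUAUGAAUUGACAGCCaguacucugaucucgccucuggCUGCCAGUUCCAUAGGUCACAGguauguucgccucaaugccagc
Mir194-1: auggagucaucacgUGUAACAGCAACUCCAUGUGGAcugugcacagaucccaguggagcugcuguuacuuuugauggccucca

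The libraries held 28015 to 205664 miRNA reads in serum and 41627 to 1398702 in bone. In serum the miRNA reads made up only 0.529 to 4.09% of each library, and the 3 synthetic RNAs added at extraction took 51220 to 1008421 reads, against 2 to 65 in bone. Sums of marker miRNAs are given in counts per 1000000 miRNA reads (CPM) after TMM scaling within a tissue, as described below. Erythrocyte miRNAs summed to between 430834 and 714860 CPM in the 4 insulin-treated sera and between 170835 and 590258 in the other 28. The TMM factors of the 4 insulin-treated sera were between 0.728 and 0.962, which makes their sums higher than the unscaled shares of reads. The muscle miRNAs miR-1, miR-133a, miR-133b and miR-206 summed to between 47594 and 430333 CPM in the bones, so the ulna samples contained muscle RNA, while the bone and cartilage miRNAs summed to between 16427 and 59597. All 7 erythrocyte, 4 leukocyte and platelet, 4 muscle and 5 bone and cartilage markers were detected in bone.

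MiR-192-5p carried almost all of the cluster's reads. It was detected in all 48 libraries, with 35 to 3047 reads in serum and 4 to 69 in bone. MiR-192-3p was detected in 25 of 32 sera, with at most 25 reads, and in 3 of 16 bones, with 1 read each. MiR-194-5p was detected in 15 of 32 sera, with at most 4 reads, and in 10 of 16 bones, with at most 8. The 3p arm of miR-194 gave 11 reads over all sera and 9 over all bones. In serum, miR-192-5p ranked between place 12 and place 86 among all miRNAs of a library and took 0.0657 to 2.02% of the miRNA reads. In bone it ranked between place 124 and place 249 and took 0.00222 to 0.0216%. Intervals for summed reads given in the following cover counting error only.

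**Figure D1:**
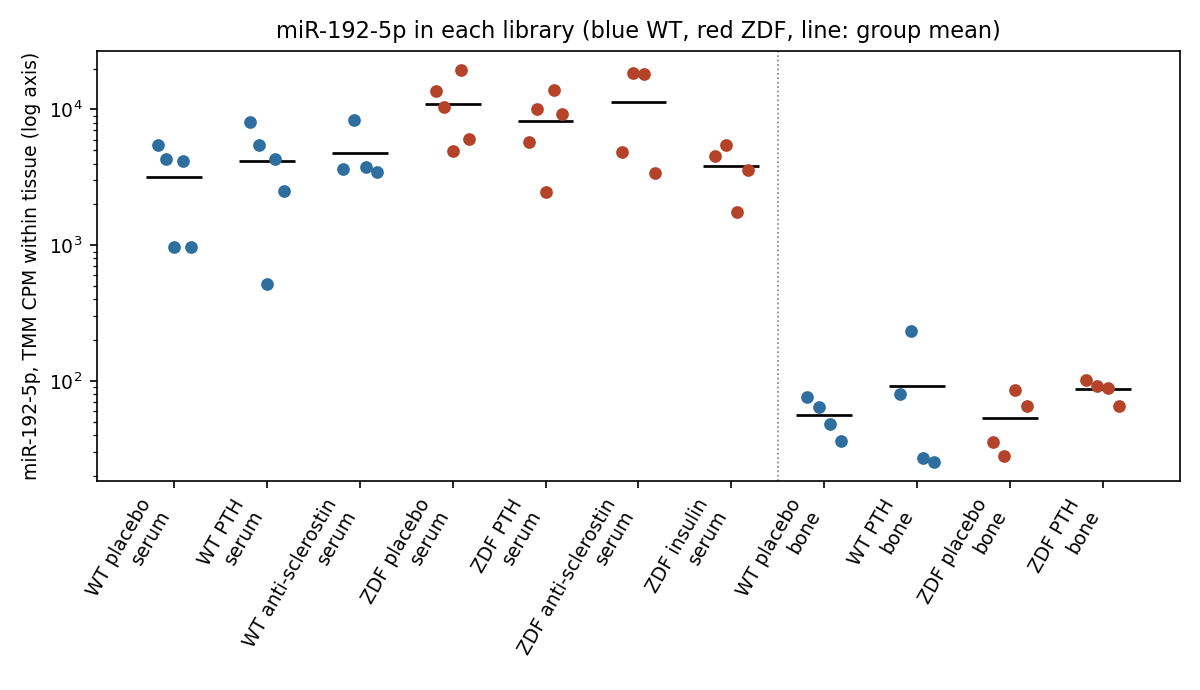
MiR-192-5p in each of the 48 libraries, in CPM after TMM scaling within a tissue, on a log axis. Points are libraries (blue WT, red ZDF) and lines are group means. The 5 ZDF placebo sera lie between 4934 and 19412, the 4 insulin-treated ZDF sera between 1773 and 5497, and all bones between 25.6 and 236.

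Levels are given as CPM after TMM scaling over all libraries of a tissue, a correction for differences in composition. In WT placebo serum miR-192-5p stood at 5431, 4335, 975, 4202 and 965 CPM. In ZDF placebo serum it stood at 13629, 10418, 4934, 19412 and 6042 CPM. Each ZDF placebo serum except replicate 3 (4934 CPM) was above each WT placebo serum, and that library was below 1 WT serum only. The means were 3181 ± 2075 (SD, n = 5) and 10887 ± 5902 CPM (SD, n = 5). The log2 fold change was 1.74 ± 0.49 (SE, 95% confidence interval 0.70 to 2.77), with an FDR of 0.0519 by edgeR's quasi-likelihood test, so miR-192-5p was higher in the diabetic animals at the limit of 0.2 used for the false discovery rate. At this limit 10 of 164 tested miRNAs (6.1%) were called in the comparison and 7 (4.27%) were higher in ZDF. The two-sided exact permutation test of the log2 levels gave p = 0.0159.

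This difference was smaller when the reads were scaled to the RNAs added at extraction. On that scale miR-192-5p had 433 to 1407 reads per 1000000 control reads in WT placebo sera and 705 to 4168 in ZDF placebo sera. The log2 fold change was then 1.15, with an FDR of 0.216 by edgeR, while the median over all tested miRNAs was -1.03. The balance of the calls turned over there, from 7 higher and 3 lower to 2 higher and 35 lower in ZDF. On either scale its fold change lay above that median. In none of the 10 refits without 1 serum did the FDR exceed 0.144.

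MiR-192-3p, the rarer arm of the same hairpin, showed the same direction in these sera. It had 0, 2, 0, 0 and 2 reads in WT placebo serum and 2, 4, 4, 9 and 9 in ZDF placebo serum. In CPM the groups did not overlap, at 0 to 22.8 against 31.6 to 161, as held for 9 of the 471 miRNAs with at least 1 read (1.91%). Summed over each group, miR-192-3p came to 6.45 CPM without TMM scaling in WT (exact Poisson 95% interval 1.76 to 16.5) and 71.5 in ZDF (47.5 to 103). The exact permutation test gave p = 0.00794, the smallest that 5 sera against 5 can give, and this p was unadjusted, as 1 of 39 such tests over the members. On the scale of the control reads the groups overlapped by 1 library (0 to 6.75 against 6.43 to 26.2), with an exact p of 0.0159. The filter on low counts removed miR-192-3p from the edgeR test of this comparison. In earlier simulations of these designs, keeping low counts in the fit gave false calls more often than the FDR allows. That limit holds for each FDR given here and below without the filter. When miRNAs with at least 1 read were tested without that filter, the FDR of miR-192-3p was 0.0034. There 33 of 471 (7.01%) were called and 11 (2.34%) were higher in ZDF. In one fit of all serum groups miR-192-3p passed the filter, with a log2 fold change of 3.33 and an FDR of 0.129. Without TMM scaling it reached 259 CPM in ZDF anti-sclerostin serum and at most 23.0 in WT placebo serum. It thus entered that fit through groups where it was high, a limit that holds for each FDR of miR-192-3p from that fit.

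For miR-194-5p no difference was detectable at this depth. It had 3, 2, 0, 0 and 0 reads in WT placebo serum and 1, 2, 0, 2 and 1 in ZDF placebo serum. The summed levels were 8.06 CPM (2.62 to 18.8) and 15.3 CPM (5.62 to 33.4), whose intervals overlap. The exact p was 0.175.

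**Figure D2:**
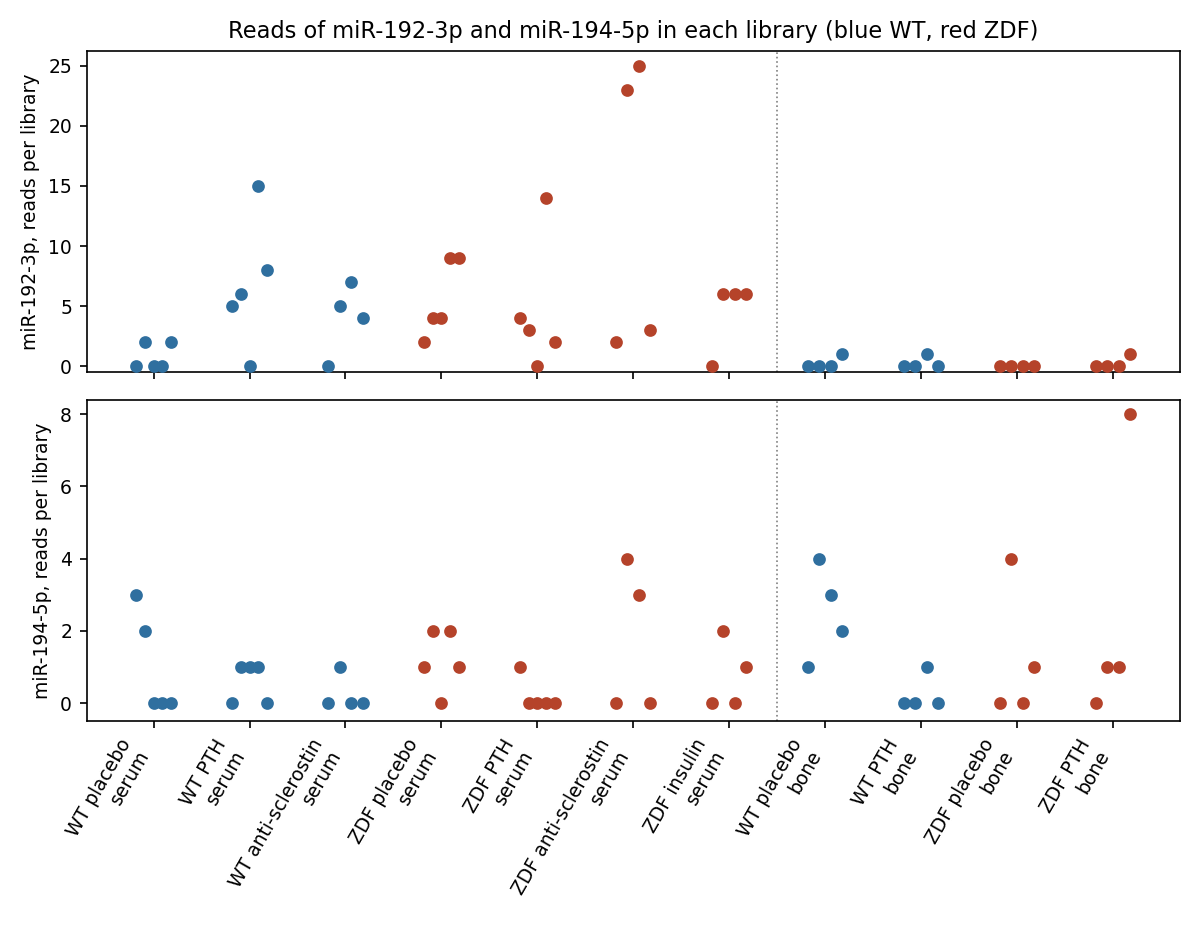
Reads of miR-192-3p (top) and miR-194-5p (bottom) counted in each library, on linear axes, for the 7 serum and 4 bone groups (blue WT, red ZDF). The WT placebo sera have at most 2 reads of miR-192-3p and the ZDF placebo sera 2 to 9, whereas miR-194-5p stays at 4 reads or fewer in all sera.

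Insulin was given to ZDF rats only, and the comparison asks what it changed against placebo in the diabetic serum. MiR-192-5p stood at 4567, 5497, 1773 and 3605 CPM in the insulin-treated sera, against the 4934 to 19412 CPM of the ZDF placebo sera. Of the 4 insulin-treated sera, only replicate 2 (5497 CPM) exceeded the lowest placebo serum. The mean was 3860 ± 1592 CPM (SD, n = 4). MiR-192-5p fell by 1.48 on the log2 scale (SE 0.41, interval -2.36 to -0.60), with an FDR of 0.0646 by edgeR, and the exact permutation test gave p = 0.0317. Without 1 serum at a time, that p stayed under 0.05 in 2 of 9 exact tests. In this comparison 40 of 151 tested miRNAs (26.5%) were called, 23 of them (15.2%) lower under insulin. The split depended on the scaling: 17 higher and 23 lower became 20 and 17 with RLE scaling, 20 and 18 with TMM without erythrocyte miRNAs, 9 and 50 with library totals, and 22 and 0 with the extraction controls.

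The insulin-treated sera also differed in their erythrocyte miRNAs, and the call for miR-192-5p was lost under 3 other ways of processing. The log2 ratio of miR-451-5p, an erythrocyte miRNA, to miR-23a-3p, used as a measure of hemolysis, was 3.18 to 3.79 in the 4 insulin-treated sera and -0.49 to 1.41 in the ZDF placebo sera. With this ratio as a covariate the log2 fold change was -1.38, with an FDR of 0.831, and 0 of 151 miRNAs were called by edgeR (9 at an unadjusted p under 0.05). Because the ratio and the treatment did not overlap, they cannot be told apart in these sera. Scaled to the control RNAs, miR-192-5p had 487 to 3190 reads per 1000000 control reads under insulin and 705 to 4168 under placebo, and the log2 fold change was -0.42 with an FDR of 0.664, where the median over all tested miRNAs was 0.72. When all serum groups entered one fit the value was -1.50 with an FDR of 0.265. Without insulin replicate 3, the serum with the lowest level, it was -1.18 with an FDR of 0.262, and the total of miRNAs called fell from 40 to 4.

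**Figure D3:**
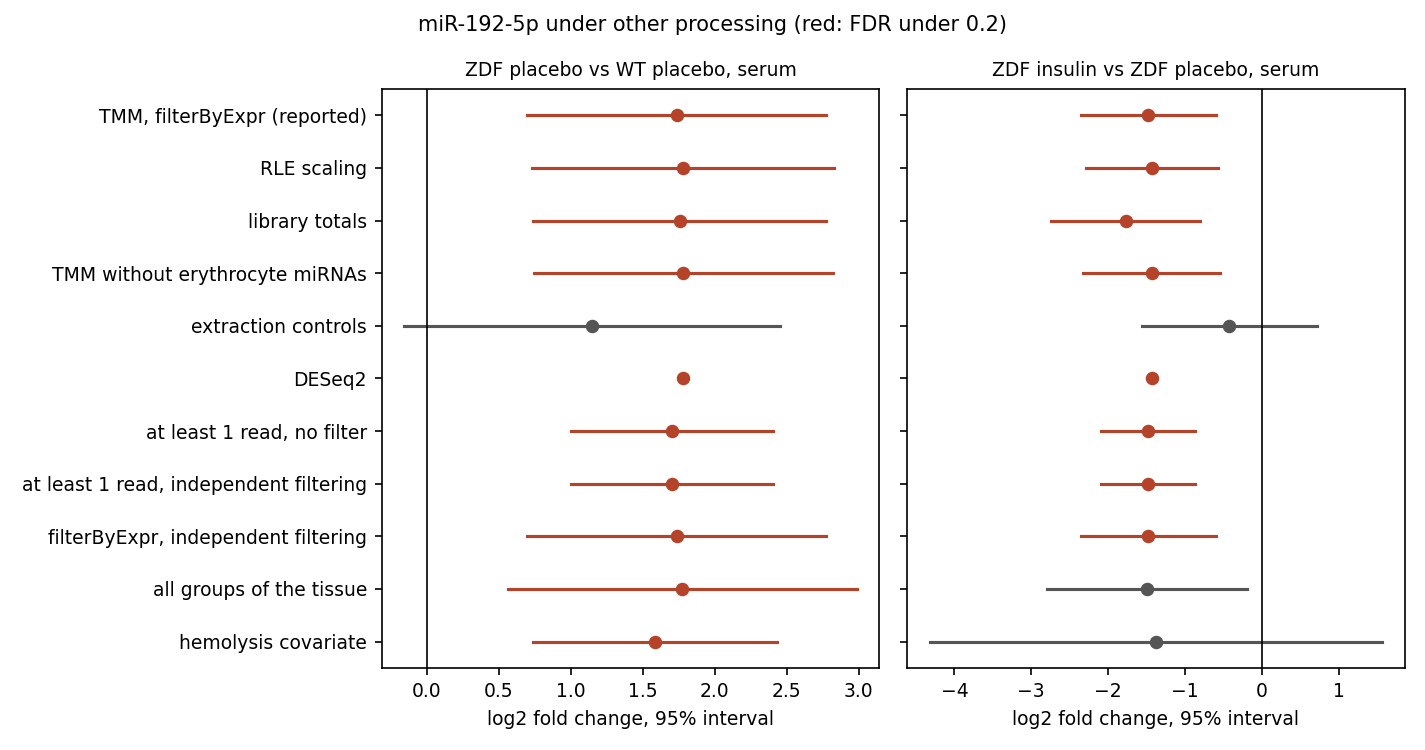
Log2 fold change of miR-192-5p with its 95% confidence interval under each way of processing, for ZDF against WT placebo serum (left) and insulin against placebo in ZDF serum (right), with red for an FDR under 0.2. DESeq2 is shown without an interval. Scaling to the extraction controls gave 1.15 and -0.42, and the hemolysis covariate left the insulin value at -1.38 with a wide interval.

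Against WT placebo serum, miR-192-5p did not pass the test in the insulin-treated ZDF sera. The log2 fold change of miR-192-5p was 0.32 (interval -0.64 to 1.28), with an FDR of 0.802 by edgeR, where 30 of 154 miRNAs (19.5%) were called. The hemolysis covariate moved this value to 1.89 with an FDR of 0.0112, and scaling to library totals moved it to -0.014. MiR-192-3p had 0, 6, 6 and 6 reads under insulin, within the range of the ZDF placebo sera apart from the 0, and the exact p was 0.714 against ZDF placebo and 0.143 against WT placebo. In the edgeR fits that held it, miR-192-3p was higher under insulin than in WT placebo serum, by 3.21 on the log2 scale without the filter (FDR 0.0187) and by 3.17 with all serum groups in one fit (FDR 0.193). MiR-194-5p had 0, 2, 0 and 1 reads. The ZDF placebo sera served as the reference for insulin, anti-sclerostin and PTH and as the group compared with WT placebo, so these comparisons are not independent of each other.

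**Figure D4:**
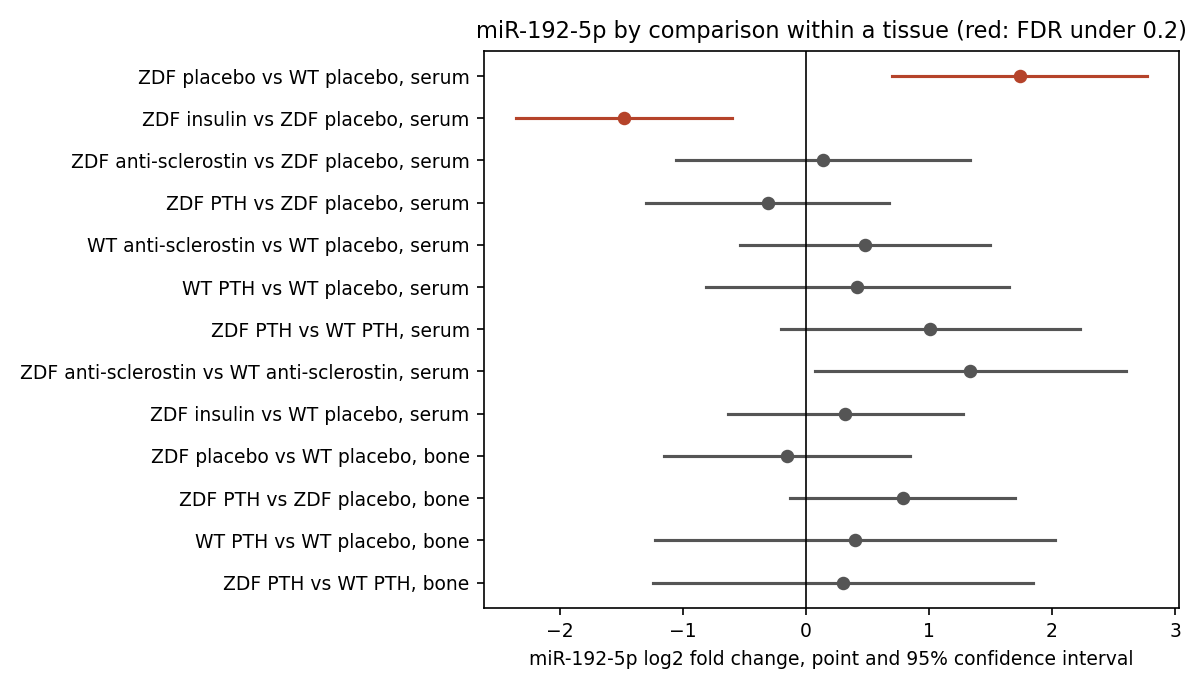
Log2 fold changes of miR-192-5p with their 95% confidence intervals for the 13 comparisons within a tissue, from edgeR. Red marks an FDR under 0.2, which held for ZDF against WT placebo serum (1.74) and for insulin against placebo in ZDF serum (-1.48).

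Anti-sclerostin antibody blocks sclerostin, an osteocyte protein that restrains bone formation. In ZDF sera under the antibody, miR-192-5p stood at 4890, 18614, 18128 and 3430 CPM. Replicates 2 and 3 were near the highest placebo serum and replicates 1 and 4 at or below the lowest, and the latter pair were also the shallowest sera, at 28015 and 33591 miRNA reads. The log2 fold change was 0.14 (interval -1.05 to 1.34), with an FDR of 0.922 by edgeR, and the 2 miRNAs called of 158 (1.27%) were not members. MiR-192-3p had 2, 23, 25 and 3 reads and miR-194-5p 0, 4, 3 and 0, so that the same libraries were high for all 3 members in reads.

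In WT sera under anti-sclerostin, miR-192-5p stood at 3663, 8336, 3784 and 3437 CPM. The groups overlapped, the log2 fold change was 0.48 (interval -0.54 to 1.49) and the FDR was 0.699. Of 171 miRNAs 0 were called by edgeR (0%), and 18 had an unadjusted p under 0.05. MiR-192-3p had 0, 5, 7 and 4 reads. Between the genotypes under anti-sclerostin, miR-192-5p was 1.34 higher in ZDF on the log2 scale (interval 0.07 to 2.60) with an unadjusted p of 0.0398 by edgeR and an FDR of 0.623, where 0 of 161 miRNAs were called (0%) and 11 had an unadjusted p under 0.05. The response to anti-sclerostin did not differ detectably between genotypes, with an interaction of -0.34 (interval -2.03 to 1.35, FDR 0.886 by edgeR, 0% of 189 called).

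PTH acts on osteoblasts and, given intermittently, raises bone formation. In WT sera under PTH, miR-192-5p stood at 8035, 5495, 522, 4336 and 2495 CPM, and replicate 3 was the lowest of all 32 sera. In ZDF sera under PTH it stood at 5716, 10071, 2451, 13895 and 9233 CPM. Neither group was separated from its placebo group. The log2 fold changes were 0.42 in WT (interval -0.82 to 1.65, FDR 0.992) and -0.31 in ZDF (interval -1.30 to 0.68, FDR 0.993). By edgeR 0 of 170 (0%) and 0 of 154 miRNAs (0%) were called, with 2 and 4 at an unadjusted p under 0.05. Between the genotypes under PTH the log2 fold change was 1.01 (interval -0.20 to 2.22, FDR 0.896), with 0 of 158 called (0%) and 5 at an unadjusted p under 0.05. The interaction for miR-192-5p was -0.76 (interval -2.41 to 0.89, FDR 0.922 by edgeR, 0% of 182 called).

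For miR-192-3p the WT sera under PTH had 5, 6, 0, 15 and 8 reads, and 4 of the 5 exceeded each WT placebo serum in CPM. The summed level was 71.3 CPM (49.4 to 99.7), against 6.45 (1.76 to 16.5) under placebo. The exact p was 0.0794. In the edgeR test without the filter on low counts the FDR was 0.179, and miR-192-3p was 1 of 1 miRNA called among 485 (0.206%). In one fit of all serum groups the log2 fold change was 3.13 and the FDR 0.62, so the call was lost. The ZDF sera under PTH had 4, 3, 0, 14 and 2 reads, against 2 to 9 under placebo. The interaction of PTH and genotype for miR-192-3p was -3.62 without the filter (FDR 0.237 by edgeR). It passed only when independent filtering adjusted the p-values of that same fit again (FDR 0.122, 6 of 267 called). In the fit of all serum groups the FDR was 0.731. MiR-194-5p had at most 1 read in any serum of the PTH groups, and 1 read in the 5 ZDF sera under PTH against 6 in the 5 under placebo (exact p = 0.0476, unadjusted over the 39 tests).

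Across the 7 serum groups the order of the mean log2 levels of miR-192-5p was ZDF placebo, ZDF anti-sclerostin, ZDF PTH, WT anti-sclerostin, ZDF insulin, WT PTH and WT placebo. No neighbours in this order differed beyond their spread (exact permutation p from 0.238 to 0.857). The 3 untreated or bone-directed ZDF groups were the 3 highest, with the step to the next group at 0.67 on the log2 scale.

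MiR-192-5p took a far smaller share of the miRNA reads in bone than in serum. Serum and bone were extracted differently, so tissue and extraction cannot be told apart here. In WT placebo bone it had 17, 27, 27 and 28 reads, or 76.4, 64.3, 48.1 and 36.1 CPM, and in ZDF placebo bone 7, 31, 12 and 14 reads, or 35.7, 28.0, 86.3 and 65.7 CPM. Each bone was below each serum. In fits over both tissues, the log2 fold change of bone against serum was -6.06 ± 0.67 (SE, FDR 3.36e-06 by edgeR) in WT and -7.72 ± 0.59 (SE, FDR 5.23e-08) in ZDF. Most miRNAs differed between the tissues, with 179 of 222 called in WT (80.6%, 38.7% lower in bone) and 174 of 202 in ZDF (86.1%, 40.1% lower). Liver miRNAs were also lower in bone: miR-122-5p, the most abundant miRNA of hepatocytes, had log2 fold changes of -6.88 in WT and -8.67 in ZDF, and miR-802-5p of -8.33 and -9.37. MiR-148a-3p, which other tissues also express, differed by 0.19 (FDR 0.693) and 0.75 (FDR 0.0492). Of the intestinal epithelial miRNAs, 5 of 6 tested were lower and 1 higher in bone in WT, and 5 of 5 were lower in ZDF. MiR-192-3p, with 28 reads in ZDF placebo serum, had 0 among the 1916794 miRNA reads of the ZDF placebo bones, which allows up to 1.57 CPM when 3 reads are taken as the limit for a count of 0.

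No change of miR-192-5p with genotype or PTH was detected in bone, at 4 to 69 reads per library and 4 rats per group. Between ZDF and WT placebo bones the log2 fold change was -0.16 (interval -1.15 to 0.84, FDR 0.919 by edgeR), where 6 of 235 miRNAs (2.55%) were called. Under PTH the WT bones had 79.8, 236, 27.3 and 25.6 CPM from 4, 9, 5 and 9 reads, a group that spanned the whole range of the bones. The ZDF bones under PTH had 102, 92.6, 88.8 and 65.7 CPM, of which 3 of 4 were above each ZDF placebo bone. The log2 fold change under PTH was 0.40 in WT (interval -1.23 to 2.02, FDR 0.818, 5.41% of 222 called) and 0.79 in ZDF (interval -0.13 to 1.70, FDR 0.678). In ZDF bone 0 of 215 miRNAs were called by edgeR (0%) and 13 had an unadjusted p under 0.05. For miR-192-5p the exact permutation test of PTH against placebo in ZDF bone gave p = 0.0571, where 0.0286 is the smallest possible. Between the genotypes under PTH it was 0.30 (interval -1.24 to 1.84, FDR 0.851, 3.27% of 214 called), and the interaction was 0.47 (FDR 0.903 by edgeR, 0% of 243 called). The bone groups were ordered ZDF PTH, WT PTH, WT placebo and ZDF placebo, with no neighbours differing beyond their spread (exact p from 0.457 to 0.886).

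The members of the cluster did not have equal numbers of reads. Under placebo the ratio of their reads was higher in serum than in bone. MiR-194-5p reached 8.84 CPM without TMM scaling over all sera (interval 5.77 to 12.9) and 4.06 over all bones (2.65 to 5.95), while miR-192-5p reached 6652 in serum and 52.6 in bone. The log2 ratio of miR-192-5p to miR-194-5p reads in a library, with 0.5 added to each, averaged 8.21 ± 0.69 (SD, n = 5) in WT placebo serum and 3.16 ± 0.45 (SD, n = 4) in WT placebo bone. In ZDF it averaged 8.94 ± 0.91 (SD, n = 5) and 3.66 ± 0.80 (SD, n = 4). Each placebo serum ratio exceeded each placebo bone ratio. The exact permutation p was 0.0159 in either genotype, the smallest that 4 against 5 can give, or 0.119 when adjusted over the 15 comparisons. Within a tissue the ratio passed an unadjusted 0.05 in no comparison (exact p from 0.143 to 0.976). With 1 in place of 0.5 added it did so for ZDF against WT placebo serum (0.95, exact p = 0.0397) and for insulin against placebo (-1.27, exact p = 0.0317). Because 17 of 32 sera had no read of miR-194-5p, the serum ratios mostly express the level of miR-192-5p.

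The arms of miR-192 were very unequal in reads as well. The 3p arm made up 0.194% of the miR-192 reads in WT placebo serum (4 of 2063 reads, exact binomial 95% interval 0.0529 to 0.496%), and 0.689% in ZDF placebo serum (0.459 to 0.995%). The WT value rested on few libraries: it was 0.416% (0.113 to 1.06%) without replicate 1, which held 1101 of the miR-192-5p reads, 0.119% without replicate 2 and 0.104% without replicate 5. The 3p arm made up 1.62% in WT PTH serum (1.13 to 2.26%) and 1.79% in ZDF insulin serum (1.06 to 2.82%). The other 3 serum groups lay between 0.646% and 1.03%, the lowest of them ZDF PTH, which was at 0.373% without replicate 4. These are sums of few reads over 4 or 5 rats, single sera ranged from 0 to 3.95%, and no test between groups was made.

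Over the 32 sera, the level of miR-194-5p followed that of miR-192-5p weakly (log2(CPM + 1), Pearson's r = 0.36, permutation p = 0.0423; Spearman's rho = 0.48, permutation p = 0.00589). On deviations from the group means r was 0.39 (permutation p = 0.0254) and rho 0.47 (p = 0.00667), and without the 2 sera farthest from the median of miR-192-5p r was 0.49. Within the 14 WT sera r was 0.15 (permutation p = 0.621), and within the 18 ZDF sera 0.49 (permutation p = 0.041). These 4 sets of sera share libraries, and with 0 to 4 reads of miR-194-5p per serum the relation is given as a description.

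**Figure D5:**
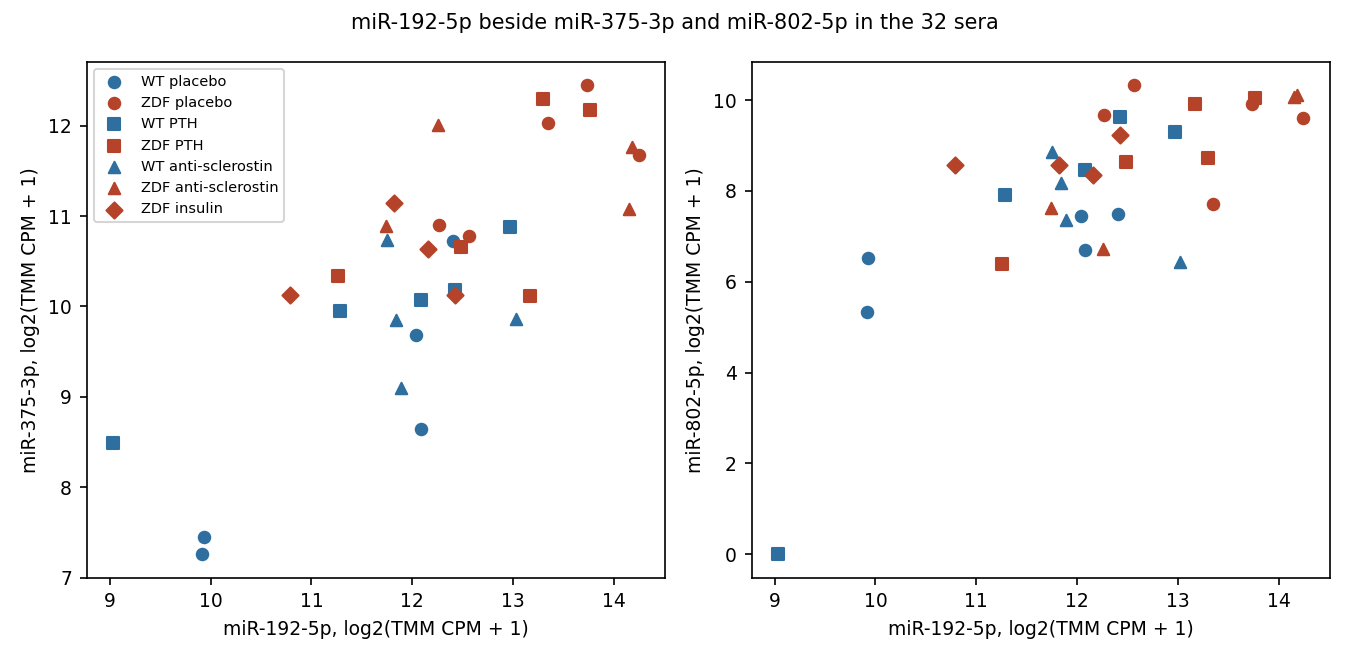
Levels of miR-375-3p (left) and miR-802-5p (right) against miR-192-5p in the 32 sera, each as log2(TMM CPM + 1), blue WT and red ZDF with 1 symbol per treatment. The level of miR-192-5p is plotted on the horizontal axis, and Pearson's r is 0.77 on the left and 0.75 on the right, where 1 WT PTH serum has no read of miR-802-5p.

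Likeness to miR-192-5p over the 32 sera was ranked by Pearson's r among 197 other miRNAs kept by the filter on low counts. The 5 miRNAs with the highest r were miR-375-3p (r = 0.77), miR-802-5p (0.75), miR-122-3p (0.70), miR-101b-3p (0.68) and miR-1247-5p (0.67). On deviations from group means they were miR-342-3p (0.80), miR-150-5p (0.76), miR-24-2-5p (0.73), miR-802-5p (0.70) and miR-93-3p (0.70). Only miR-802-5p was in both lists. The order depended on the measure: for the levels, miR-31a-5p was at place 14 by r (0.57) but had a Spearman's rho of 0.82. That rho was 0.66 for miR-375-3p and 0.69 for miR-802-5p. The points share libraries, scaling and depth, and the correlations are descriptions.

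Other miRNAs that liver and intestinal epithelium are known to express were examined beside miR-192-5p in the comparisons where it passed the test. Of 4 tested liver miRNAs, 3 were higher and 0 lower in ZDF placebo than in WT placebo serum, where 4.27% of all tested miRNAs were higher, with a list median of 2.01 on the log2 scale beside -0.09 for all 164 tested miRNAs. They were miR-802-5p (2.71, FDR 0.00475 by edgeR), miR-122-3p (2.09, FDR 0.0197) and miR-122-5p (1.94, FDR 0.0519), whereas miR-148a-3p had -0.74 (FDR 0.321). MiR-122-3p and miR-122-5p are arms of the same hairpin. Of 5 tested intestinal miRNAs, 2 were higher and 0 lower, with a list median of 0.88. Those called were miR-375-3p, also abundant in pancreatic islets, at 2.30 (FDR 0.0262) and miR-31a-5p at 1.68 (FDR 0.0262). In the human cell atlas that the study used, miR-375 was enriched in the pituitary gland and miR-31-5p in epithelial cells of internal surfaces. With the extraction controls only miR-802-5p (1.99, FDR 0.126 by edgeR) and miR-375-3p (1.79, FDR 0.146) were still called higher, and miR-148a-3p was called lower (-1.52, FDR 0.174). None of the tested kidney (4), erythrocyte (7), leukocyte and platelet (4) or muscle (1) miRNAs was called, and of 4 bone and cartilage miRNAs 1 was lower, miR-199a-3p at -1.82 (FDR 0.0262).

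Under insulin, 3 of 4 tested liver miRNAs and 4 of 5 tested intestinal miRNAs were lower than in ZDF placebo serum and none higher. Of all 151 tested miRNAs, 15.2% were lower and 26.5% were called in either direction. The list medians were -1.16 and -1.10, beside -0.10 for all tested miRNAs. The liver miRNAs were miR-122-3p (-1.67, FDR 0.0646 by edgeR), miR-122-5p (-1.37, FDR 0.160) and miR-802-5p (-0.95, FDR 0.165), and miR-148a-3p had 0.12 (FDR 0.812). The intestinal miRNAs were miR-31a-5p (-1.82, FDR 0.0616), miR-375-3p (-1.15, FDR 0.0648), miR-141-3p (-1.10, FDR 0.172) and miR-200a-3p (-0.77, FDR 0.188). Of the 7 erythrocyte miRNAs 5 were higher, led by miR-451-5p at 2.33 (FDR 0.000315) and followed by miR-25-3p (1.25), miR-144-3p (1.05), miR-486 (0.85) and miR-144-5p (0.71). One more of each of 3 lists passed the test: miR-10a-5p (kidney, -1.26), miR-150-5p (leukocyte, -1.27) and miR-140-5p (cartilage, 0.94). As for miR-192-5p, none of these calls was made when the hemolysis ratio entered the fit. With the extraction controls 0 of the liver and 0 of the intestinal miRNAs were called lower, and 6 of the 7 erythrocyte miRNAs were called higher. With all serum groups in one fit, 0 of 4 liver and 2 of 6 intestinal miRNAs were called lower.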

How the data were processed

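The authors trimmed the reads with cutadapt, mapped them with bowtie and miRDeep2 to Rnor 6.0 and then to miRBase, and deposited whole-number counts for each mature miRNA without normalization. RPM values per library, also deposited by the authors, served to compute the library totals. A column scaled to miRNA reads was not used. Libraries were assigned to groups by the labelled genotype, treatment and tissue. No label pairs replicates, which were numbered in accession order.

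The tests were run with edgeR 4.0.16 in R 4.3.3 (TMM, filterByExpr, quasi-likelihood test with legacy = TRUE, only the groups compared in the fit). FDR is the Benjamini-Hochberg adjusted p over all miRNAs tested, with a limit of 0.2. Genotypes were compared in their response by an interaction over 4 groups. The test was tried on simulated counts. FilterByExpr took the place of the study's filtering because fits that kept low counts gave too many false calls in earlier simulations of these designs. Exact permutation tests of log2(TMM CPM + 1) were two-sided; the smallest p is 0.00794 for 5 against 5, 0.0159 for 4 against 5 and 0.0286 for 4 against 4. Correlations used 100000 resamples. A miRNA with 3 reads or fewer in each library of a group is given in reads. Chi-squared per degree of freedom between libraries of a group was at least 12.7, so no library was a copy of another in its group. Libraries of different groups were not compared in this way.

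Alternatives were RLE scaling, library totals, TMM without erythrocyte miRNAs, the extraction controls, DESeq2 1.42.0, tests of all miRNAs with at least 1 read with or without independent filtering, independent filtering after filterByExpr (50 quantiles up to 0.95), all groups of a tissue in one fit, a hemolysis covariate and each replicate left out. The study also filtered low-abundance miRNAs by an adapted independent filtering, whose settings are not given in the sources used here, and versions of it were run as alternatives.

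The members, the lists of tissue miRNAs and the tests were chosen with earlier results of these data known. By the rule for named miRNAs, the text names the members, listed liver miRNAs, listed miRNAs called where a member was called (in bone against serum, given mostly as counts), and the 5 miRNAs most like miR-192-5p by each measure.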

Additional observations from a re-analysis of the deposited data

Results flagged for a closer look

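In 2 of 18 groups of 4 or 5 libraries, 1 library stood far from the rest by Dixon's criterion, for miR-192-5p in all groups and miR-192-3p in serum. Chance flags about 1 in 20 groups. In WT anti-sclerostin serum, replicate 2 had 8336 CPM of miR-192-5p and the next library 3784. In ZDF PTH serum, replicate 4 had 171 CPM of miR-192-3p, from 14 reads, and the next library 45.5.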

How the results depend on the processing

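Over the 18 comparisons and interactions, the log2 fold change of miR-192-5p was recomputed under 7 to 10 alternatives each. The calls between bone and serum held under all that could be run (-6.06 to -5.85 in WT and -7.86 to -7.51 in ZDF). ZDF against WT placebo serum held under 9 of 10, with 1.15 (FDR 0.216) on the extraction controls, and 1.05 by the exact test on that scale. Insulin against placebo in ZDF held under 7 of 10: it gave -0.42 with the extraction controls (-0.54 by the exact test), -1.50 with all groups in one fit and -1.38 with the hemolysis covariate. For the cause of these losses no test was made. Fold changes that were not called turned sign with TMM without erythrocyte miRNAs (ZDF anti-sclerostin, -0.11), with the hemolysis covariate (ZDF anti-sclerostin -0.56, WT anti-sclerostin -0.33), with the extraction controls (ZDF PTH 0.59, WT PTH -0.14, the serum interactions of PTH 0.73 and of anti-sclerostin 0.67) and with library totals (ZDF insulin against WT placebo, -0.014). Calls were gained by ZDF against WT under anti-sclerostin with all miRNAs of at least 1 read and independent filtering (1.18, FDR 0.20) and by ZDF insulin against WT placebo with the hemolysis covariate (1.89, FDR 0.0112).

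Without each replicate in turn, miR-192-5p ranged from -1.66 to -1.17 for insulin against placebo (-1.67 to -1.10 by the exact test, whose p then was under 0.05 in 2 of 9, rose to at most 0.0714 and could not go below 0.0286), from -0.32 to 0.50 for ZDF anti-sclerostin, from -0.65 to 0.044 for ZDF PTH, from -0.48 to 0.16 for ZDF against WT bone, from -0.61 to 0.95 for WT PTH bone, from -0.23 to 1.33 for ZDF against WT bone under PTH and from -0.080 to 1.46 for the bone interaction. The miR-192-3p level ranged from -1.82 to 0.49 for insulin and from 2.85 to 4.59 for WT PTH, where leaving out PTH replicate 3 (no reads) gave an exact p of 0.0159. The ratio of miR-192-5p to miR-194-5p ranged from -0.56 to 0.057 for ZDF anti-sclerostin, from -0.63 to 0.89 for WT PTH serum, from -0.19 to 0.91 for ZDF PTH bone and from -0.063 to 0.73 for WT PTH bone. With a pseudocount of 1 it passed an unadjusted 0.05 for ZDF against WT placebo serum (0.95) and for insulin (-1.27), and gave 0.023 for WT PTH serum and -0.30 for WT PTH bone.

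Counts of called miRNAs moved more: over all alternatives, replicates included, 8 to 37 for ZDF against WT placebo serum (10 as reported), 0 to 59 for insulin (40), 2 to 51 for ZDF insulin against WT placebo (30), 0 to 24 for ZDF anti-sclerostin (2), 0 to 88 for ZDF PTH (0), 0 to 17 for WT anti-sclerostin (0), 0 to 87 for ZDF against WT bone (6), 0 to 89 for WT PTH bone (12), 3 to 25 for ZDF against WT bone under PTH (7) and 0 to 16 for ZDF PTH bone (0). Between bone and serum they reached 330 in WT (179) and 348 in ZDF (174). In the other comparisons, with 0 as reported, they reached at most 21. No paired analysis was possible because the labels carry no replicate numbers. The alternatives for the exact tests, the listed tissue miRNAs and the 3p arm share were chosen after seeing the data. Depth limits miR-194-5p and, in bone, miR-192-3p, which had too few reads for a fold change, and the filter on low counts removed both from nearly all fits. In the unfiltered fit and that of all serum groups, miR-192-3p was called in ZDF against WT placebo serum (FDR 0.00267 to 0.129). Both called ZDF insulin against WT placebo serum (0.014 to 0.193). WT PTH serum passed in the unfiltered fit (0.179, or 0.102 by independent filtering). Only that filtering called WT anti-sclerostin serum (0.165, 17 of 305 called) and the serum PTH interaction (0.122).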
